A study of Mus musculus with 6 samples.

Results

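The early-response genes described here are those of the AP-1 families (Fos, Fosb, Fosl1, Fosl2, Jun, Junb and Jund) with Egr1, Myc and Ier3. They were searched for by the array names FOS, FOSB, FOSL1, FOSL2, JUN, JUNB, JUND, EGR1, MYC and IER3. They were read on an Illumina bead array from cultured malignant epithelium, a short-term explant of a pancreatic carcinoma from a KPC-Brca1 mouse. The names matched 12 probes of 8 of these 10 genes, out of 45281 probes in all. Jund, whose array name JUND1 is a RefSeq synonym, added 1 probe and brought the genes to 9, and Fosl1 was not analysed here. Of the 13 probes, 11 passed the detection filter, at least 1 for each of the 9 genes.

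The study set 3 untreated plates of these cells against 3 plates kept for 48 h in 0.5 µM decitabine (5-aza-dC, DAC), a cytidine analog that is built into DNA and depletes DNA methyltransferases. All 6 samples came from the explant culture named in the labels, which spell out neither the alleles of the KPC-Brca1 model nor the Cre driver. The plates are the replicates (n = 3 per group), and nothing says that they came from separate tumours or explants, so p-values measure the spread between plates, which may be technical.

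AP-1 is a dimer of basic leucine zipper proteins, in which a Fos family protein pairs with a Jun family protein, or Jun proteins pair with each other. Many of these genes are switched on within minutes of growth factor or stress signals without new protein synthesis. Egr1 is a zinc finger factor induced by the same signals, Myc a helix-loop-helix factor that drives ribosome and nucleotide synthesis genes with its partner Max, and Ier3 a short-lived early-response protein linked to cell survival.

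Promoter sequences are shown for Fos and Ier3, the genes whose fall passed the test, and for Fosb, the closest relative of Fos among those measured. They are RefSeq windows of build GRCm38.p6 that run from 250 bases before to 50 bases after the annotated start, 5′ to 3′ on the strand of the gene. Windows were used for 7 of the 9 genes, and not for Myc and Egr1. Capitals mark matches on either strand to the TATA box (TATAAA), the core of the cAMP response element, or CRE core (TGACG), the GC box (GGGCGG) and the EGR site (GCGNGGGCG), of which the last 2 can overlap.
Fos, chr12:85473640-85473939, plus strand: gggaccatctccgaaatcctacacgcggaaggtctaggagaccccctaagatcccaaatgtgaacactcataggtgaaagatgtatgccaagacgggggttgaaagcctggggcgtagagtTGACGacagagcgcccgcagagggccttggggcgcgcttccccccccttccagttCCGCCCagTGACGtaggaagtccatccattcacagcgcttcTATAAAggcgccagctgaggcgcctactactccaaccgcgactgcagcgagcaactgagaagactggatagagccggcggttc
Fosb, chr7:19309996-19310295, minus strand: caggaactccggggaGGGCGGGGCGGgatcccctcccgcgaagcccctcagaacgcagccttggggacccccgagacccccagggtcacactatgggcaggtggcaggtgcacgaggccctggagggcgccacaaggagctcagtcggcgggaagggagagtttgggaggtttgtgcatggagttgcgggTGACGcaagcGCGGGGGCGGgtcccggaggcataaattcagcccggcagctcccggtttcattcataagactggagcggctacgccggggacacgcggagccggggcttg
Ier3, chr17:35821463-35821762, plus strand: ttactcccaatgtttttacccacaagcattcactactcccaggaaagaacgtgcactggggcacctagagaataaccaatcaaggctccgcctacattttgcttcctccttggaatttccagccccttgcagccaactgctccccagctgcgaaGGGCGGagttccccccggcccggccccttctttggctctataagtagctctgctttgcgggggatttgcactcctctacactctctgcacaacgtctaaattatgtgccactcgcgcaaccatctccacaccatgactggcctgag

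The Fos window held a TATA box at -33 to -28, a GC box and CRE cores at -129 to -125 and -66 to -62, counted from the start. Fosb held a CRE core at -60 to -56, 3 GC boxes and an EGR site, and Ier3 held a GC box at -96 to -91. A GC box was found in 5 of the 7 windows (35.9% of 27025 promoters hold one), a CRE core in 3 (21% of all), a TATA box in 2 (14.2% of all) and an EGR site in 2 (5.55% of all). The other TATA match, in Junb, lay at 1 to 6, on the annotated start and not before it. The full cAMP response element (TGACGTCA, in 1.88% of all promoters), the AP-1 site (TGANTCA, 7.93%) and the CArG box (1.57%) had no match in these 7 windows. Sequence more than 250 bases before the start was not searched, so these genes may hold such sites farther out. The windows held from 3 CpGs (Jund) to 32 (Fosl2), with 20 in Fos, 25 in Fosb and 10 in Ier3, against a median of 7 over all promoters. All except that of Jund therefore lay above the median. Methylation was not measured in these samples, and a match of letters says nothing about whether a factor binds.

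Each array held 19890 to 21462 detected probes, and 14154 genes were tested. Untreated replicate 1 stood apart from untreated replicates 2 and 3, at 16.9 and 20.1 times the bead noise by median squared difference, while replicates 2 and 3 differed by 1.73 times and DAC pairs by 3.52 to 8.15 times. They were kept as separate samples, and results that turn on them are given without them too. Across groups, pairs differed by 11.6 to 22.6 times. By this measure untreated replicate 1 lay nearer to DAC replicates 2 (13.7) and 3 (12.7) than to the other untreated arrays. Untreated replicates 2 and 3 lay nearer to DAC replicate 1 (11.6 and 12.4) than to untreated replicate 1. By correlation of log2 signal, untreated replicate 1 lay nearest to the other untreated arrays (r = 0.977 and 0.976). Its mean intensity was 460, against 313.2 to 360.7 elsewhere. Of 8 epithelial markers, 7 were detected on all 6 arrays, among them Krt7, Krt8, Krt18, Krt19 and Cdh1, and Epcam on none. Only Krt7 passed, with a log2 fold change of -0.47 ± 0.13 (SE; adjusted p = 0.0448, limma), and its call held in 7 of 15 alternative fits. No array detected 5 of 8 leukocyte markers (Ptprc, Cd3e and Itgam among them), 5 of 6 endothelial markers (Pecam1 and Cdh5 among them), 4 acinar or islet markers (Cpa1 and Ins2 among them) or 6 of 9 fibroblast markers. Among the rest, the leukocyte marker Cd68 and the acinar marker Cela1 were detected on all 6 arrays. Their log2 fold changes of 0.09 ± 0.13 and 0.21 ± 0.12 did not pass. The islet marker Gcg, detected on 1 untreated and 3 DAC arrays, just missed the threshold at 0.68 ± 0.20 (adjusted p = 0.0541, limma). The endothelial marker Esam, detected on all 6 arrays, rose by 1.14 ± 0.14 (adjusted p = 0.00109, limma). The leukocyte marker Laptm5 was detected on no untreated and all 3 DAC arrays, at least 3.93-fold higher (adjusted p = 0.000502 by limma with no detection filter). The summed fibroblast marker signal was 458 to 493 in untreated and 1384 to 1831 in DAC arrays, through Acta2 and Col1a1, which rose by 2.23 ± 0.23 and 2.22 ± 0.24 (log2, SE). The summed signal was 26037 to 31508 against 30069 to 33979 for epithelial, 360 to 391 against 440 to 533 for leukocyte, 134 to 141 against 175 to 191 for endothelial, and 557 to 650 against 648 to 719 for acinar and islet markers. Their part in the results below was not tested, and in bulk RNA fewer cells of a type and less RNA per cell cannot be told apart.

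Fos was the early-response gene with the clearest change, and it fell to about 0.533 times its untreated level. Ier3 also fell, to 0.742 times. Fosb, Jund and Egr1 had lower means with DAC without passing the threshold, and Junb, Fosl2, Myc and Jun had differences within 0.17 of 0 on the log2 scale. By limma with Benjamini-Hochberg adjustment over all genes, 2 of the 9 genes fell at an adjusted p under 0.05, where 7.21% of all genes tested fell. None of the 9 rose, where 10.1% of all genes did. At an unadjusted p under 0.05 (limma), 0 of the 9 were higher and 4 lower, against 16.2% and 15.8% of all genes. The median log2 fold change (DAC minus untreated) of the 9 genes was -0.24, against -0.02 over all genes, and 8 of 9 values were below 0. In 4 of the 9 (Fos, Fosb, Egr1 and Ier3) all DAC values lay below all untreated values, which held for 18.7% of all genes, and in none did all DAC values lie above, which held for 17.4%.

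**Figure D1:**
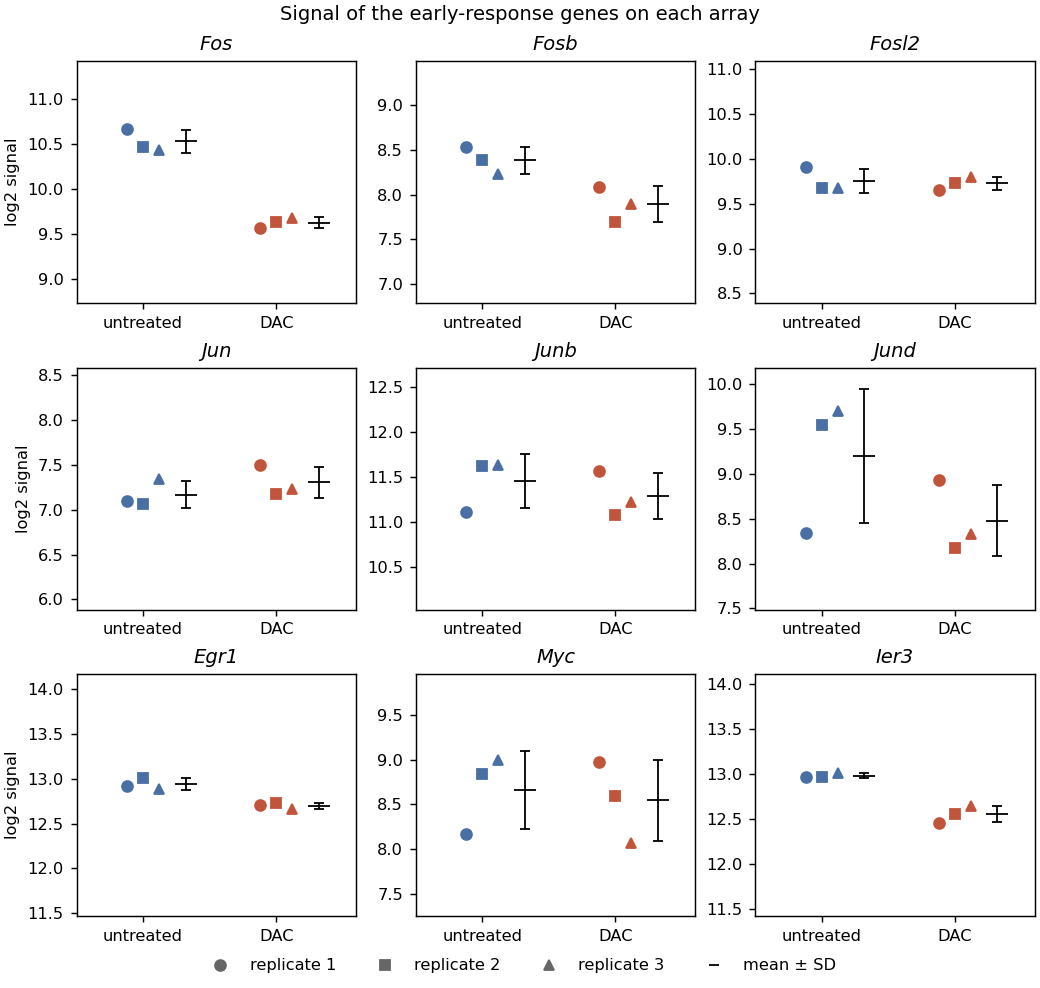
Log2 signal after background correction and quantile normalization (vertical axis, the same span in each panel) of the 9 genes on the 3 untreated (blue) and 3 DAC (red) arrays, with marker shapes for replicates 1, 2 and 3 and bars for the mean ± SD. The groups are apart for Fos, Fosb, Egr1 and Ier3, while for Junb, Jund and Myc untreated replicate 1 is the lowest untreated and DAC replicate 1 the highest DAC value.

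Fos encodes the founding partner of Jun in AP-1. Its log2 signal was 10.67, 10.47 and 10.44 on untreated replicates 1 to 3 and 9.56, 9.63 and 9.68 on DAC replicates 1 to 3. The groups did not overlap, and the untreated values ranged over 0.23 and the DAC values over 0.12. The mean went from 10.53 ± 0.13 to 9.62 ± 0.06 (SD, n = 3), a fall of 0.91 ± 0.12 (log2, SE; adjusted p = 0.00147, limma), and 0.749% of all genes had a lower log2 fold change. The call held in all 15 alternative fits, with log2 fold changes from -1.06 to -0.83 and adjusted p from 0.000555 to 0.0256.

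Fosb, a Fos relative that also pairs with Jun proteins and is induced by the same signals, just missed the threshold. Its log2 signal was 8.53, 8.39 and 8.23 on untreated arrays and 8.09, 7.69 and 7.90 on DAC arrays, so that the highest DAC value lay just under the lowest untreated one. The log2 fold change was -0.49 ± 0.14 (SE, n = 3 per group; 95% interval -0.82 to -0.16, not adjusted for the number of genes), at an adjusted p of 0.0503 by limma. It passed in 5 of the 15 alternative fits, among them the fit without DAC replicate 1 (adjusted p = 0.0472), and over all 15 the adjusted p ran from 0.0384 to 0.188.

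Fosl2, which encodes Fra-2, had 3 probes, of which the brightest stood for the gene. Its untreated values ran from 9.67 to 9.91 and its DAC values from 9.65 to 9.80, and the groups overlapped. The log2 fold change was -0.03 ± 0.12 (95% interval -0.30 to 0.24; adjusted p = 0.897, limma). The other 2 probes were far dimmer, with log2 signals of 4.74 to 5.50 and 5.17 to 6.16, and the first was detected on only 2 untreated arrays. They gave 0.22 ± 0.20 and 0.43 ± 0.19 in the fit with 1 row per probe (adjusted p = 0.498 and 0.175, limma). The 3 probes thus differed in sign and none passed.

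Of the Jun genes, none passed the test. Jun, which forms the strongest transactivating Jun dimers, had log2 signals of 7.10, 7.06 and 7.34 untreated and 7.50, 7.18 and 7.23 with DAC, with overlapping groups. Its log2 fold change of 0.14 ± 0.14 (95% interval -0.18 to 0.45; adjusted p = 0.535, limma) was the only positive one among the 9 genes.

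Junb, a Jun relative that can restrain Jun activity, read 11.11, 11.62 and 11.63 on the untreated arrays and 11.57, 11.07 and 11.22 on the DAC arrays. Untreated replicate 1 lay with DAC replicates 2 and 3, and DAC replicate 1 with untreated replicates 2 and 3. The log2 fold change was -0.17 ± 0.19 (95% interval -0.60 to 0.27; adjusted p = 0.592, limma). A second Junb probe was detected on 1 untreated and 1 DAC array and was not tested.

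Jund, the Jun family member usually expressed in resting cells, had the widest spread of the 9 genes. Its log2 signal was 8.34, 9.55 and 9.70 on untreated replicates 1 to 3 and 8.93, 8.17 and 8.33 on DAC replicates 1 to 3. Untreated replicate 1 minus the mean of the other 2 untreated arrays was -1.29, a gap whose size 1.11% of all genes exceeded. The log2 fold change was -0.72 ± 0.36 (95% interval -1.53 to 0.10; adjusted p = 0.209, limma). Without untreated replicate 1 it was -1.13 and passed (adjusted p = 0.0039), and without any other array it did not, with adjusted p from 0.154 to 0.483.

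Egr1 was detected on every array and its groups were narrow. The log2 signal was 12.92, 13.01 and 12.89 untreated and 12.71, 12.73 and 12.66 with DAC. Although all DAC values lay below all untreated ones, the log2 fold change of -0.24 ± 0.11 (95% interval -0.48 to 0.00) did not pass (adjusted p = 0.156, limma), and 24.1% of all genes had a lower one. It passed in none of the 15 alternative fits, where it ran from -0.38 to -0.20.

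Myc was measured by 1 probe, while a second was detected on no array. Its log2 signal was 8.17, 8.84 and 8.99 untreated and 8.97, 8.59 and 8.07 with DAC, and the groups overlapped almost fully. The log2 fold change was -0.12 ± 0.27 (95% interval -0.74 to 0.50; adjusted p = 0.801, limma), and its sign turned without untreated replicate 3 (0.04) and without DAC replicate 3 (0.11). A change of either sign within that interval is not excluded by these plates.

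Ier3 was the other gene of the 9 to pass, with little spread among plates. Its log2 signal was 12.97, 12.97 and 13.01 untreated and 12.46, 12.55 and 12.64 with DAC, and the groups did not overlap. It fell by 0.43 ± 0.11 (log2, SE, n = 3 per group; adjusted p = 0.0288, limma), and 10.3% of all genes had a lower log2 fold change. The direction held in all 15 alternative fits, while the call held in 7 and was lost in 8. Among those 8 were each fit that left out an array other than untreated replicate 1 (adjusted p from 0.071 to 0.111), median scaling (adjusted p = 0.0555) and the fit with untreated replicates 2 and 3 averaged (adjusted p = 0.106), while without untreated replicate 1 the adjusted p was 0.0177.

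**Figure D2:**
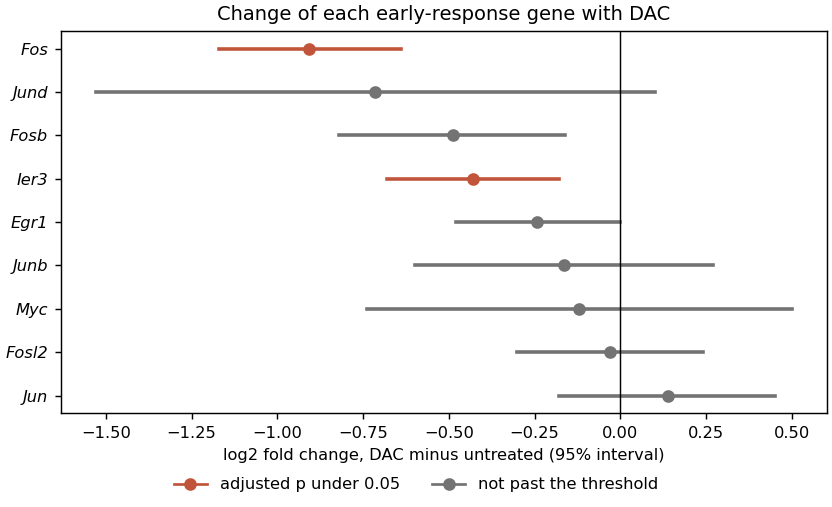
Log2 fold change, DAC minus untreated (horizontal axis), of each of the 9 genes with its 95% interval from limma, not adjusted for the number of genes. Fos at -0.91 and Ier3 at -0.43 (red) passed an adjusted p of 0.05, and the widest interval is that of Jund, from -1.53 to 0.10.

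The genes differed in how they varied within a group. Untreated replicate 1 minus the mean of the other untreated arrays was -1.29 for Jund, -0.74 for Myc and -0.52 for Junb. DAC replicate 1 minus the mean of the other DAC arrays was 0.67 for Jund, 0.64 for Myc and 0.43 for Junb. Over all genes the median absolute gap was 0.27 for untreated replicate 1 and 0.17 for DAC replicate 1. For Fos, Fosl2, Ier3 and Egr1 these gaps were 0.23 or less in size. In all 3 genes with wide gaps, untreated replicate 1 was therefore the low untreated array and DAC replicate 1 the high DAC array. Opposite deviations of these arrays were not particular to the 3 genes. Across genes, the deviations of untreated replicate 1 and DAC replicate 1 from their group means had a correlation of -0.612. The cause was not tested.

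**Figure D3:**
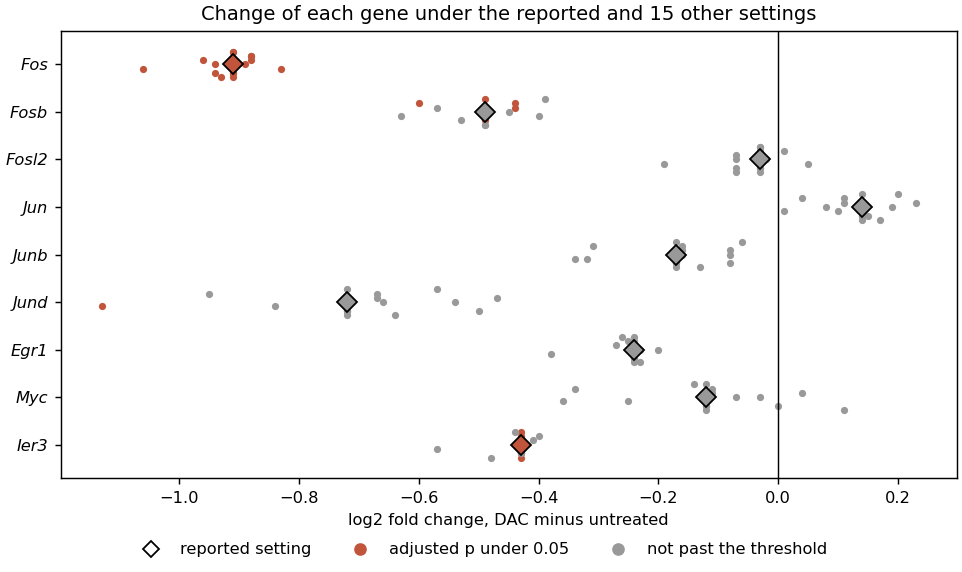
Log2 fold change, DAC minus untreated (horizontal axis), of each of the 9 genes in the reported fit (diamond) and in 15 alternative fits (dots), red where the adjusted p was under 0.05. All Fos values, from -1.06 to -0.83, are red, while the Myc values spread across 0 from -0.36 to 0.11.

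By a fixed rule, the genes nearest in pattern were sought for the 3 members with the largest absolute change, among 10089 named genes that every array detected. The measure was the root mean square difference of log2 values centred on each gene's mean over the 6 arrays. Nearest to Fos were Slco4a1 (0.043), an organic anion transporter gene, Gabrg3 (0.044), a GABA receptor subunit gene, and Bdnf (0.048), the gene of a neurotrophin that neuronal activity induces. Nearest to Fosb were Atg7 (0.058), Plce1 (0.063) and Rarres2 (0.064). For Jund the nearest were Tead3 (0.142), Map4 (0.143) and Tkfc (0.145). The values were not scaled by a gene's spread, which was widest for Jund, so distances cannot be compared between members. These distances describe 6 arrays and are not tests.

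Other early-response genes moved both ways. Of 26 on the list, all were on the array and 19 were tested. Of these, 4 fell and 1 rose, where 7.21% and 10.1% of all genes did. The median log2 fold change was -0.12 against -0.02 over all genes. Ccn1 (Cyr61), a matricellular protein gene and serum-response target, went from 11.53, 11.65 and 11.73 untreated to 10.79, 10.53 and 10.48 with DAC, a fall of 1.03 ± 0.13 (adjusted p = 0.00133, limma). Ccn2 (Ctgf), its relative, fell by 0.67 ± 0.10 (adjusted p = 0.00347, limma), and Csrnp1, a nuclear factor induced by axin, rose by 0.97 ± 0.17 (adjusted p = 0.00698, limma). The Ccn1 call held in all 15 alternative fits. Trib1, a pseudokinase gene, and Egr3, an Egr1 relative, were named after their values were seen. They fell by 0.58 ± 0.12 and 0.70 ± 0.18 (adjusted p = 0.0156 and 0.0347, limma). The Egr3 call was lost without any 1 array other than untreated replicate 1 (adjusted p from 0.0515 to 0.113), and the Trib1 call without untreated replicate 2 or DAC replicate 1 or 2. The 4 falls became 2 without each of those 3 arrays, and the 1 rise became 2 without untreated replicate 1. Nr4a1, Nr4a3, Egr4 and Btg2 were detected on no array, and Ier5, Klf10 and Gem on 1.

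Basic leucine zipper genes outside the Fos and Jun families, whose products can pair with AP-1 proteins, moved both ways. Of 13 on the list, 12 were tested, 3 rose and 1 fell, where 10.1% and 7.21% of all genes did. The median log2 fold change was 0.15. Atf3, a stress-induced factor that pairs with Jun, read 7.93, 8.24 and 8.29 untreated and 9.16, 8.93 and 8.91 with DAC. It rose by 0.85 ± 0.14 (adjusted p = 0.00472, limma), and its call held in all 15 alternative fits. Mafk, a small Maf protein gene, rose by 0.67 ± 0.11 (adjusted p = 0.00481, limma). Batf2, an interferon-inducible gene, was detected on no untreated and on all 3 DAC arrays, at least 1.26-fold higher with DAC. It passed the detection filter through the DAC arrays alone, and in the fit with no filter its adjusted p was 0.00902 (limma). The gene that fell was Maf, named after its values were seen, at -0.61 ± 0.15 (adjusted p = 0.0289, limma), and its call was lost without any 1 array other than untreated replicate 1 (adjusted p from 0.0767 to 0.115). Without untreated replicate 1, 4 of these genes fell.

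Of 17 genes of the dimerization and cofactor network of Myc 16 were tested, 1 rose and 1 fell, where 10.1% and 7.21% of all genes did, with a median of 0.06 and values from -0.63 to 0.92. Mxd3, the gene of a Max partner that opposes Myc, was detected on no untreated and all 3 DAC arrays and was at least 1.67-fold higher. This 1 rise passed the detection filter through the DAC arrays alone, with an adjusted p of 0.00819 in the fit with no filter (limma). Trrap, a cofactor in Myc's histone acetyltransferase complexes, fell by 0.63 ± 0.13 (adjusted p = 0.013, limma), a call that ended (adjusted p of 0.0643, 0.0727 and 0.0575) on leaving out the second untreated, the second DAC or the third DAC array. Mycl, a Myc paralog, did not pass, at 0.61 ± 0.22 (adjusted p = 0.0966, limma). Without untreated replicate 1, 3 genes of the network rose. Mxd3 was not tested when a DAC array was left out, so that 0 rose there.

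Of 27 genes known as Myc targets, 25 were tested, 4 rose and 0 fell, where 10.1% and 7.21% of all genes did. The median was 0.24. At an unadjusted p under 0.05 (limma), 8 were higher and 0 lower, against 16.2% and 15.8% of all genes. Odc1, the rate-limiting enzyme of polyamine synthesis, rose by 0.78 ± 0.11 (adjusted p = 0.00241, limma), and its call held in all 15 alternative fits. Bop1, a ribosome assembly factor gene, rose by 0.63 ± 0.15 (adjusted p = 0.0254, limma) and Nme1, a nucleoside diphosphate kinase gene, by 0.45 ± 0.12 (adjusted p = 0.0364, limma). The fourth was Ddx21, an RNA helicase gene, at 0.58 ± 0.17, named after its values were seen. Leaving out untreated replicate 2, untreated replicate 3, DAC replicate 2 or DAC replicate 3 left 1 rise, as did median scaling, and leaving out untreated replicate 1 gave 8.

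Of 15 genes known as AP-1 targets, 14 were tested, 3 rose and 0 fell, where 10.1% and 7.21% of all genes did. The median was 0.06. At an unadjusted p under 0.05 (limma), 4 were higher and 1 lower, against 16.2% and 15.8% of all genes. Mmp10, a stromelysin gene, rose by 2.13 ± 0.13 (adjusted p = 2.52e-05, limma). Mmp3, the neighbouring stromelysin, was detected on no untreated and all 3 DAC arrays and was at least 2.96-fold higher. It too passed the detection filter through the DAC arrays alone, and its adjusted p was 0.00378 with no filter (limma). Plaur, the urokinase receptor gene, rose by 0.46 ± 0.11 (adjusted p = 0.0284, limma), a call lost without any 1 array other than untreated replicate 1 (adjusted p from 0.058 to 0.122). The count of rises was 1 without DAC replicate 1, 2 or 3, where Mmp3 was not tested, and 1 gene fell without untreated replicate 1.

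Of 10 genes known as Egr1 targets, 9 were tested, 2 fell and 1 rose, where 7.21% and 10.1% of all genes did. The median was 0.00. The falls were those of Fn1 and Thbs1, both matrix glycoprotein genes, at -0.97 ± 0.20 and -1.74 ± 0.39 (adjusted p = 0.0137 and 0.0188, limma), and Id3, an inhibitor of helix-loop-helix factors, rose by 0.67 ± 0.15 (adjusted p = 0.0187, limma). The calls on Fn1 and Thbs1 both ended on leaving out untreated replicate 2, untreated replicate 3 or DAC replicate 2, and that on Fn1 also without DAC replicate 3. The call on Id3 ended on leaving out either of untreated replicates 2 and 3, or either of DAC replicates 1 and 3.

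Genes of the kinases and ternary complex factors upstream of Fos and Egr1 gave no call. Of 21 on the list 20 were tested, 0 rose and 0 fell, where 10.1% and 7.21% of all genes did. The median was -0.11. At an unadjusted p under 0.05 (limma), 0 were higher and 3 lower, against 16.2% and 15.8% of all genes. Nearest to the threshold were Elk3 at -0.38 ± 0.12, Cop1, a ubiquitin ligase gene for Jun, at -0.74 ± 0.24, and Elk4 at -0.34 ± 0.12 (adjusted p = 0.0639, 0.0723 and 0.0891, limma). Srf, the gene of the serum response factor, stood at -0.05 ± 0.20 and was named after its values were seen. Without untreated replicate 1, 3 of these genes fell.

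**Figure D4:**
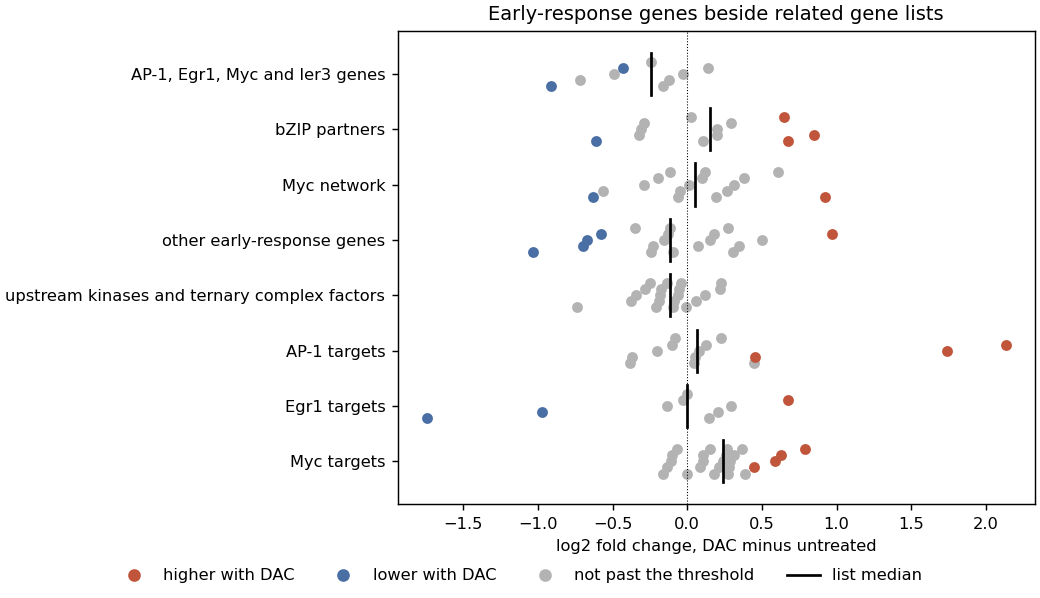
Log2 fold change, DAC minus untreated (horizontal axis), of the 9 early-response genes and of 7 related lists (rows), 1 dot per tested gene, red for rises and blue for falls at an adjusted p under 0.05 and black bars for medians. The 9 genes have a median of -0.24 and no rise, and the largest rises lie among the AP-1 targets (Mmp10 and Mmp3).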

How the data were processed

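The authors' deposited table, not normalized, holds per the file headers for each probe and array a mean bead intensity, its standard error, the bead number and a detection p-value. Scanner software and earlier steps: not given in the sources used here. A second table with the authors' processed values, whose identifiers are not paired with gene names here, was not used.

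In R 4.3.3 with limma 3.58.1, intensities were background-corrected by neqc from the detection p-values (offset 16), quantile-normalized and put on the log2 scale. The authors' linear intensities became log2 values only here. Probes with a detection p under 0.05 on at least 3 of 6 arrays were kept (21415). Of 30854 array names 16223 matched a RefSeq symbol and 5684 a single synonym; a gene's value was that of its brightest kept probe on average. DAC and untreated arrays were compared with lmFit and eBayes without covariates, with Benjamini-Hochberg adjustment over 14154 genes. Where no untreated array detected a gene, its bound uses the lowest detected signal per array or its own if higher. In values simulated for this comparison (14154 genes), 100 genes were changed by 1 and 100 by 0.5 on the log2 scale. Changes of 1 were recovered in 55% and of 0.5 in 3% of cases. Many more genes were called in the data, which makes the adjustment there less strict, so these shares do not carry over. Used member probes had 23 to 62 beads per array, with bead standard errors of 2.75% to 5.17%, and the number of arrays limits the precision.

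Members and lists were chosen with earlier results of these data known. The text names every member, the 3 tested genes of each related list with the lowest adjusted p, the 3 nearest genes in pattern for 3 members, and genes said to be chosen after their values were seen. Alternatives were the replicate number as a block, other normalizations, offsets and filters, each probe on its own row, and leaving out each array. Same-numbered arrays did not deviate together (correlations of deviations -0.612, -0.109 and -0.479), while those of other pairs ran from -0.463 to 0.561. Deviations from the mean of 3 arrays depend on each other, so these values cannot decide whether the numbers pair the plates.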

Additional observations from a re-analysis of the deposited data

How the results depend on the processing

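The number of the 9 early-response genes called lower was 2 in the reported fit (Fos and Ier3), and 3 or 2 with cyclic loess, no background correction, an offset of 50, either stricter filter, no filter or 1 row per probe. It was 1, that of Fos, with median scaling, with the replicate number as a block (Ier3 adjusted p = 0.156) and with untreated replicates 2 and 3 averaged, an alternative added after seeing the data, and 1 to 3 with 1 array left out. The number called higher was 0 in every fit. Over all genes, 1429 rose and 1021 fell. With the replicate block, a pairing that could not be checked here, 697 rose and 177 fell. With median scaling 907 rose, and the median over all genes went from -0.02 to -0.12 (log2 fold change). With the 2 close untreated arrays averaged 928 rose and 394 fell. With 1 array left out, 635 to 2537 rose and 286 to 2148 fell, the highest without untreated replicate 1. The replicate block also ended the calls on 15 of the 21 genes of the related lists that the text names as called (adjusted p from 0.05 to 0.175), and those on Atf3, Ccn1, Mmp10, Mmp3, Mxd3 and Odc1 held. No call on a named gene turned its direction. Why the counts moved was not tested. The authors' processed table was not run as an alternative, because its entries could not be named. Among changes under 0.5 on the log2 scale, Ier3 at -0.43 passed in the reported fit and Fosb at -0.49 did not. Changes of about that size lie near what 3 plates a group could show here.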
